A study of Rattus norvegicus with 12 samples.

Results

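The 10 genes described here, all of glucose uptake and upper glycolysis, were followed in N27 cells, a rat line made by immortalising embryonic midbrain cells and labelled as dopaminergic neurons. They are the glucose transporter gene Slc2a1, the hexokinase genes Hk1 and Hk2, the isomerase gene Gpi, the phosphofructokinase genes Pfkl, Pfkm and Pfkp, their regulator Pfkfb3, and the aldolase genes Aldoa and Aldoc. The members were taken by name from the gene names on the arrays, which gave 10 of 36174 names and 13 of 45598 distinct probes, and 11 of the 13 probes passed the filter on dim signal. The study comprised 7 cultures with a CRISPR removal of Vdac1 (KO, numbered 1 to 7) and 5 wild-type cultures (WT, numbered 3 and 5 to 8), each grown to the same stated confluence and measured on 1 array. Vdac1 encodes the channel that lets ATP and other metabolites through the outer membrane of mitochondria. Whether the KO cultures came from 1 clone or several, where the edit lies and whether cultures of a genotype were grown independently are points that the sources used here do not give, so p-values measure only the spread between these cultures.

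Glucose enters through the transporter GLUT1, the product of Slc2a1, and is phosphorylated by hexokinase. The isomerase and phosphofructokinase then carry the sugar phosphate through the first committed step, and aldolase splits it into a pair of triose phosphates. Hexokinases I and II bind VDAC at the mitochondrial surface, which places the first step of glycolysis beside the channel that passes ATP. The enzyme encoded by Pfkfb3 makes fructose 2,6-bisphosphate, the strongest known activator of phosphofructokinase. Several of these genes, among them Slc2a1, Hk2, Pfkfb3, Aldoa and Aldoc, are textbook targets of the hypoxia-inducible factor.

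The measuring oligos are 60 bases long and are shown because each value below is the signal of 1 of them. Positions are bases of the transcript named in the files, and coordinates are those in the files, whose headers name build rn4. An exon annotation of that build was not used here. The Aldoa probe lies at base 581 of NM_012495 (chr1:185972062-185972121, minus strand), the Gpi probe at base 1667 of NM_207592 (chr1:86659123-86659182, minus strand) and the Hk1 probe at base 2686 of NM_012734, which the files leave unmapped. They are given in full, 5′ to 3′.
Aldoa: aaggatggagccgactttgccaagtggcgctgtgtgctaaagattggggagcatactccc
Gpi: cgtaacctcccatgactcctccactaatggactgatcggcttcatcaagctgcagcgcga
Hk1: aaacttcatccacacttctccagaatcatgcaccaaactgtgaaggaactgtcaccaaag
For 4 members whose KO signal fell into separate ranges by sample number, the first 30 bases of the brightest probe are given. These are Slc2a1 (base 2330 of NM_138827, chr5:139718779-139718838, plus strand), Hk2 (base 6088 of XM_006236711, chr4:116924279-116924338, minus strand), Pfkfb3 (base 4985 of XM_006254193, chr17:78270574-78270633, plus strand) and Aldoc (base 1514 of NM_012497, chr10:64308833-64308892, minus strand). RefSeq, in the later build GRCr8, has Aldoc on the plus strand, while the other mapped members have the same strand in both, and which strand the Aldoc oligo reads was not tested.
Slc2a1: tctcctgtgcactgagggccagacaaacac
Hk2: ctcggttttgtcactatgtacagtagagaa
Pfkfb3: agaaagctgtatagattgggtttaattgtt
Aldoc: atcgggatgtgaaccctggcccagactcac
No other probe on the array shared a stretch of 20 bases with any of the 13 member probes, so on this measure the isoforms were read by distinct oligos. The remaining members were measured at base 2511 of NM_013190 for Pfkl (chr20:11032281-11032340), base 2651 of NM_031715 for Pfkm (chr7:136845936-136845995) and base 2605 of NM_206847 for Pfkp (chr17:74822966-74823025), all on the plus strand.

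Values are log2 signal minus the array's own 75th percentile, so that 0 is the signal of a fairly bright spot. Differences are KO minus WT. Levels of different probes were not compared, since each oligo binds with its own strength. The 75th percentile of the arrays ranged from 120.1 to 691.8 signal units, 42.3% to 53.8% of spots were well above background and no spot was saturated. The arrays separated first by sample number: on the first principal component, with 36.6% of the variance, scores of 34.9 to 48.2 belonged to the arrays numbered 1 to 4 (WT 3 with KO 1 to KO 4), and scores of -49.7 to -16.3 to those numbered 5 to 8 (the other 4 WT arrays with KO 5 to KO 7). The sources used here do not say what the numbers stand for, and WT 3 is the lone wild-type array among numbers 1 to 4. Each member is therefore also given within both sets of numbers. Slide 2 sets KO 1, KO 2 and KO 3 against WT 5, and slides 1 and 3 also hold both sets, so differences within slides mix number set with genotype. Of 12 dopaminergic neuron markers 4 passed the filter; Th, the enzyme of dopamine synthesis, was well above background on 12 arrays, and Slc6a3, the dopamine transporter, on 0. Of 6 general neuron markers 1 passed, while Vim, of mesenchymal cells, was well above background on 12 arrays. No astrocyte or oligodendrocyte marker passed, 0 of 8, and of 4 microglia markers Cx3cr1 did. In such bulk RNA, fewer cells of a type and less RNA per cell cannot be told apart.

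The Vdac1 signal was lower in every KO array than in every WT array. At base 1724 KO 1 to KO 4 gave 2.54, 2.45, 2.68 and 2.26, with 1.21, 1.53 and 1.20 for KO 5 to KO 7, against 3.61 in WT 3 and 3.07 to 3.16 in WT 5 to WT 8. The difference was -1.23 (SE 0.28, limma adjusted p = 0.0562, exact two-sided permutation p = 0.00505). At base 880 the difference was -1.22 (limma adjusted p = 0.0422) and at base 630 it was -1.15 (limma adjusted p = 0.0897). The probe at base 880 shared a stretch of 20 bases with another probe on the array, which differed by -1.10 (limma adjusted p = 0.0729). Since the edit site is not given, whether bases 1724, 880 and 630 lie inside the edited part was not tested. The Vdac1 signal remained well above background in all 7 KO cultures, and was higher in KO 1 to KO 4 than in KO 5 to KO 7.

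Aldoa was the 1 member that rose in the KO over all 12 arrays. Aldolase A is the main aldolase of muscle and of most growing cells. Its signal ranged from 2.99 to 3.73 in KO cultures, with a median of 3.48, against 2.42, 2.59, 2.46, 2.69 and 2.68 in WT 3, WT 5, WT 6, WT 7 and WT 8. The groups did not overlap: the lowest KO array stood above the highest WT array. The Aldoa mean was 3.42 ± 0.27 (SD, n = 7) in the KO and 2.57 ± 0.12 (SD, n = 5) in the WT, a difference of 0.85 (SE 0.15, 95% interval 0.53 to 1.17), or 1.80-fold (limma adjusted p = 0.0243). Of all 17890 probes tested, 0.704% were called higher and 0.442% lower, 1.74% had every KO array above every WT array and 0.933% below. Aldoa differed by 0.67 in numbers 5 to 8 (adjusted p = 0.0324) and by 1.11 in numbers 1 to 4 (adjusted p = 0.0653), and these did not differ from each other beyond their error (adjusted p = 0.512). Within slides 1, 2 and 3 the Aldoa difference was 0.86, 1.05 and 0.52. The call was lost without KO 1, KO 2, KO 3, WT 5, WT 6 or WT 8 in turn, where the adjusted p of Aldoa reached 0.0827, while the difference stayed between 0.80 and 0.92. It was also lost under quantile normalization (adjusted p = 0.0591), with the deposited value table (adjusted p = 0.0579), with median subtraction (adjusted p = 0.0660) and with no filter on dim probes (adjusted p = 0.321).

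**Figure D1:**
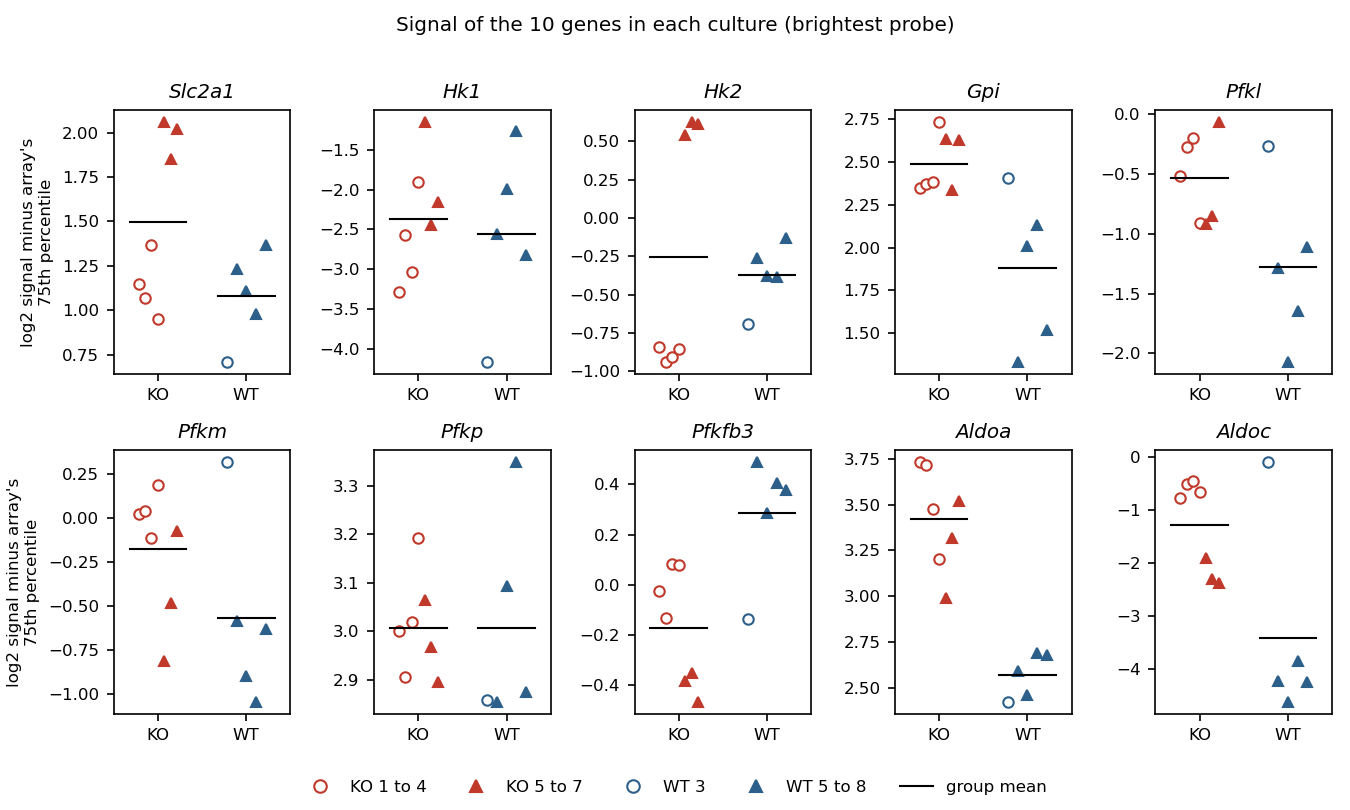
Signal of each of the 10 genes in every culture, as log2 signal minus the array's 75th percentile on its own vertical axis for each gene, with KO left and WT right. Circles are sample numbers 1 to 4, triangles 5 to 8 and bars group means; Aldoa shows no overlap between KO and WT, and in Hk2 the KO cultures fall near 0.59 (KO 5 to KO 7) and -0.89 (KO 1 to KO 4).

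Aldoc, the aldolase isoform of brain, gave the widest spread of the members. KO 1 to KO 4 gave -0.78, -0.51, -0.45 and -0.66, with -1.90, -2.29 and -2.37 for KO 5 to KO 7, against -0.094 in WT 3 and -4.22, -4.61, -3.84 and -4.23 in WT 5 to WT 8. WT 3 was thus the highest of all 12 arrays, and the other 4 WT arrays were the lowest. The means were -1.28 ± 0.87 (SD, n = 7) in the KO and -3.40 ± 1.87 (SD, n = 5) in the WT, a difference of 2.12 (SE 0.69) that did not pass (limma adjusted p = 0.156). Without WT 3 the Aldoc difference was 2.95 and passed (adjusted p = 0.00329). That fit holds no WT array of numbers 1 to 4, so it mixes number set with genotype. In numbers 5 to 8 Aldoc rose by 2.04 (SE 0.19, adjusted p = 0.000136), and in numbers 1 to 4 it differed by -0.50 (adjusted p = 0.447). Within slides 1, 2 and 3 it differed by -0.17, 3.64 and 2.94, slide 1 being the one that holds WT 3. With normexp background correction, which compresses dim signals, the Aldoc difference was 0.78 (adjusted p = 0.636).

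The Aldoc probe is spotted 10 times on each array, which shows the technical spread inside an array. From 7 to 10 spots were used per array. Spot values ranged from -0.98 to -0.32 over KO 1 to KO 4, against -0.42 to 0.11 in WT 3, and those of KO 2 and KO 3 overlapped with WT 3. The SD between spots was 0.068 to 0.24 in KO arrays, 0.15 in WT 3 and 0.30 to 0.57 in WT 5 to WT 8. The probe was well above background on 7 of 7 KO arrays and 3 of 5 WT arrays. WT 6 and WT 7 were not, so the size of the Aldoc difference rests in part on signal near background.

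**Figure D2:**
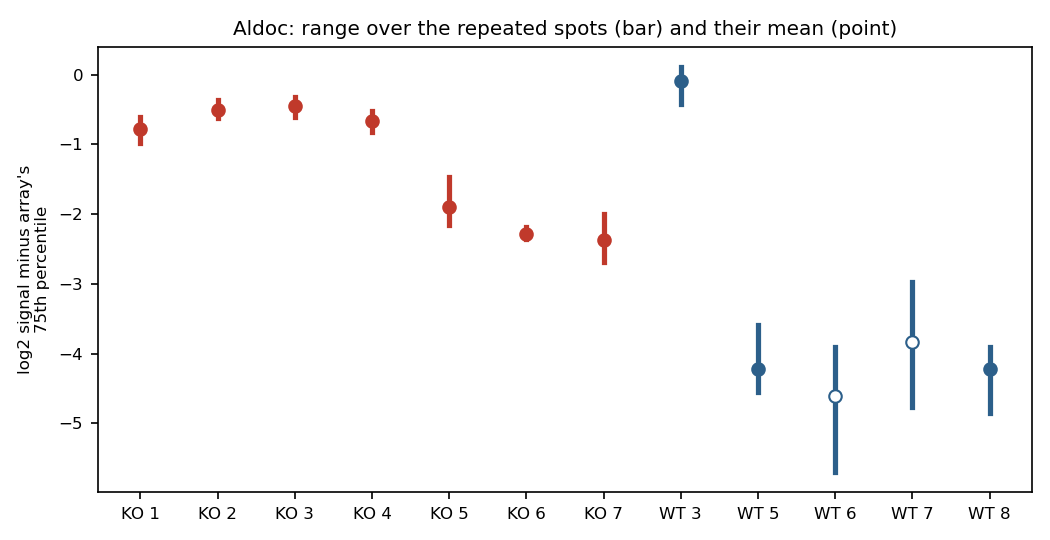
Aldoc signal on each array, as log2 signal minus the array's 75th percentile. Bars span the lowest to the highest repeated spot used on that array, points are their means, and open points mark WT 6 and WT 7, where the probe was not well above background; WT 3 at -0.094 stands apart from WT 5 to WT 8, which lie between -4.61 and -3.84.

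Slc2a1, the main glucose importer of proliferating cells, had its highest signal in KO 5 to KO 7. Its signal was 2.06, 1.85 and 2.02 in KO 5 to KO 7, against 1.23, 1.11, 0.98 and 1.37 in WT 5 to WT 8, and the groups did not overlap. In KO 1 to KO 4 the Slc2a1 signal was 1.15, 1.07, 1.37 and 0.95, against 0.71 in WT 3, a difference of 0.43 (limma adjusted p = 0.388). Over all 12 arrays the difference was 0.42 (SE 0.22, 95% interval -0.065 to 0.90, limma adjusted p = 0.381). With the sets of numbers as a block Slc2a1 rose by 0.68 (SE 0.13, adjusted p = 0.0125), and in numbers 5 to 8 by 0.80 (adjusted p = 0.00615). The difference between both sets was 0.38 and did not pass (adjusted p = 0.499). Within slides 1, 2 and 3 the Slc2a1 difference was 0.90, -0.034 and 0.46.

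Hk2, the inducible hexokinase, separated the KO cultures by number. Its signal was 0.54, 0.62 and 0.61 in KO 5 to KO 7, against -0.26, -0.38, -0.38 and -0.13 in WT 5 to WT 8. It was -0.84, -0.94, -0.91 and -0.85 in KO 1 to KO 4, against -0.69 in WT 3. So KO 5 to KO 7 were the highest arrays of the study for Hk2 and KO 1 to KO 4 the lowest, with every WT array between them. Over all 12 arrays the Hk2 difference was 0.12 (SE 0.33, limma adjusted p = 0.905). In numbers 5 to 8 Hk2 rose by 0.88 (SE 0.11, adjusted p = 0.00105), in numbers 1 to 4 it differed by -0.19 (adjusted p = 0.667), and the difference between both sets was 1.07 (SE 0.20, adjusted p = 0.0259), with WT 3 as the lone wild-type array of its set. Within slides 1, 2 and 3 it differed by 1.03, -0.64 and 0.22. The second Hk2 probe, at base 3508 of NM_012735 (chr4:116925790-116925849, minus strand), lay between -2.00 and -1.19 in KO 5 to KO 7, against -2.64 to -2.22 in WT 5 to WT 8, again without overlap. It lay between -3.41 and -2.24 in KO 1 to KO 4, against -2.90 in WT 3. Its difference in numbers 5 to 8 was 0.85 (adjusted p = 0.0688) and in numbers 1 to 4 it was 0.12, of the other sign than at the brighter probe. The difference between both sets, 0.73 at this probe, did not pass (adjusted p = 0.478).

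Hk1, the hexokinase of brain and red cells that is made at a steady level in many tissues, varied widely within both genotypes. It ranged from -3.29 to -1.15 in KO cultures with a median of -2.45, against -4.16, -2.56, -1.99, -1.26 and -2.83 in WT 3, WT 5, WT 6, WT 7 and WT 8. The groups overlapped throughout. The highest Hk1 values came from slide 3, whose arrays had a scan day of their own. They were -1.91 in KO 4, -1.15 in KO 5, -1.99 in WT 6 and -1.26 in WT 7. The Hk1 difference was 0.19 (SE 0.46, limma adjusted p = 0.880), with 0.24 in numbers 5 to 8 (adjusted p = 0.787) and 1.46 in numbers 1 to 4 (SE 0.64, adjusted p = 0.326), and its 95% interval of -0.79 to 1.18 is the widest of the members but that of Aldoc.

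Gpi, which turns glucose 6-phosphate into fructose 6-phosphate, was tight in the KO and spread in the WT. Its signal ran from 2.33 to 2.73 in KO cultures with a median of 2.39, against 2.41, 1.33, 2.01, 2.13 and 1.52 in WT 3, WT 5, WT 6, WT 7 and WT 8. Each KO array stood above WT 5 to WT 8, and WT 3 lay inside the KO range. The Gpi difference was 0.61 (SE 0.18, limma adjusted p = 0.124). It passed in numbers 5 to 8 (0.78, adjusted p = 0.0352) and without WT 3 (0.74, adjusted p = 0.0333), and was 0.051 in numbers 1 to 4. The fit without WT 3 mixes number set with genotype. Within slides 1, 2 and 3 Gpi differed by 0.52, 1.04 and 0.61.

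Among the phosphofructokinases, whose products assemble into tetramers, Pfkl encodes the liver type, Pfkm the muscle type and Pfkp the platelet type. Pfkl lay between -0.92 and -0.068 in KO cultures with a median of -0.52, against -0.26 in WT 3 and -1.29, -2.07, -1.65 and -1.11 in WT 5 to WT 8. Again each KO array stood above WT 5 to WT 8, with WT 3 inside the KO range. The Pfkl difference was 0.74 (SE 0.28, limma adjusted p = 0.209). It was 0.92 in numbers 5 to 8 (adjusted p = 0.0655) and -0.21 in numbers 1 to 4, passed without WT 3 (0.99, adjusted p = 0.0328), and was 0.23, 0.96 and 0.94 within slides 1, 2 and 3. Here too the fit without WT 3 mixes number set with genotype.

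Pfkm lay between -0.81 and 0.19 in KO cultures with a median of -0.074, against 0.32 in WT 3 and -0.59, -0.89, -1.04 and -0.63 in WT 5 to WT 8. Here the groups overlapped in numbers 5 to 8 as well. The Pfkm difference was 0.39 (SE 0.24, limma adjusted p = 0.441), with 0.33 in numbers 5 to 8 and -0.28 in numbers 1 to 4. Pfkp varied least. It ran from 2.90 to 3.19 in KO cultures with a median of 3.0004, against 2.86, 2.85, 3.09, 3.35 and 2.88 in WT 3, WT 5, WT 6, WT 7 and WT 8. Its difference was 0.00050 (SE 0.13, adjusted p = 0.999), with a 95% interval of -0.27 to 0.27, and it was -0.067 in numbers 5 to 8 and 0.17 in numbers 1 to 4.

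Pfkfb3 was the member with a negative difference. The brightest Pfkfb3 probe gave -0.38, -0.35 and -0.47 in KO 5 to KO 7, against 0.49, 0.29, 0.41 and 0.38 in WT 5 to WT 8. It gave -0.027, -0.13, 0.082 and 0.079 in KO 1 to KO 4, against -0.14 in WT 3. The groups stood clear of each other in numbers 5 to 8, and in numbers 1 to 4 the lone WT array was lowest by a small margin. Over all 12 arrays the Pfkfb3 difference was -0.46 (SE 0.15, limma adjusted p = 0.167). Pfkfb3 fell by 0.79 in numbers 5 to 8 (SE 0.12, adjusted p = 0.00206) and differed by 0.14 in numbers 1 to 4, and the difference between both sets was -0.93 (SE 0.20, adjusted p = 0.0485), again with WT 3 alone in its set. Within slides 1, 2 and 3 the Pfkfb3 difference was -0.53, -0.51 and -0.50.

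The other Pfkfb3 probes were dim. The probe at base 1907 of NM_057135 (chr17:78262283-78262342, plus strand) was well above background on 3 of 7 KO arrays and 1 of 5 WT arrays, and the probe at base 3941 of XM_008771850 (chr17:78268135-78268194, plus strand) on 0 arrays. Neither passed the filter, so the Pfkfb3 result rests on 1 probe for a predicted transcript. The sequence of the dim probe at base 1907 is given for comparison with the bright one above.
Pfkfb3 at base 1907: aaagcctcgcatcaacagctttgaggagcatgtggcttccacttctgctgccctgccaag

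Over the 10 members, limma called 1 higher and 0 lower, while an unadjusted p under 0.05 gave 4 higher and 1 lower, where it gave 9.2% and 6.62% of all probes. A positive difference was found in 9 members, where 54.4% of all probes had one. The 9 include Pfkp at 0.00050, Hk2 at 0.12 and Hk1 at 0.19, each of which changed sign when some single arrays were left out. The median difference was 0.40, against 0.035 over all probes. With the sets of numbers as a block 2 members were called higher, Slc2a1 and Aldoa, and 0 lower, where 2.95% and 2.15% of probes were called. In numbers 5 to 8, with 3 KO and 4 WT arrays, 5 members rose (Slc2a1, Hk2, Gpi, Aldoa and Aldoc) and Pfkfb3 fell, where 4.99% of probes were called higher and 4.48% lower. In 6 members every KO array of that set stood above every WT array and in 1 below, against 12.8% and 8.76% of probes. The median difference of the members was 0.73 there, against 0.074 over all probes, and 0.094 in numbers 1 to 4, against -0.012. The difference between both sets was called for 3 members, Hk2, Pfkfb3 and Aldoc, and for 1.7% of probes. Each contrast in numbers 1 to 4 rests on the single array WT 3. Of the 4 mesenchymal markers, 3 were tested, and in numbers 5 to 8 Vim fell (-0.97, adjusted p = 0.0184) while Col1a1 differed by 0.35 (adjusted p = 0.764) and Thy1 by 0.31 (adjusted p = 0.463). The summed signal of the 4, most of it that of Vim, in multiples of the array's 75th percentile, was 3.49 to 4.61 in KO 5 to KO 7, against 5.24 to 8.53 in WT 5 to WT 8, and 4.78 to 5.80 in KO 1 to KO 4, against 4.15 in WT 3, and its part in the members' differences was not tested.

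**Figure D3:**
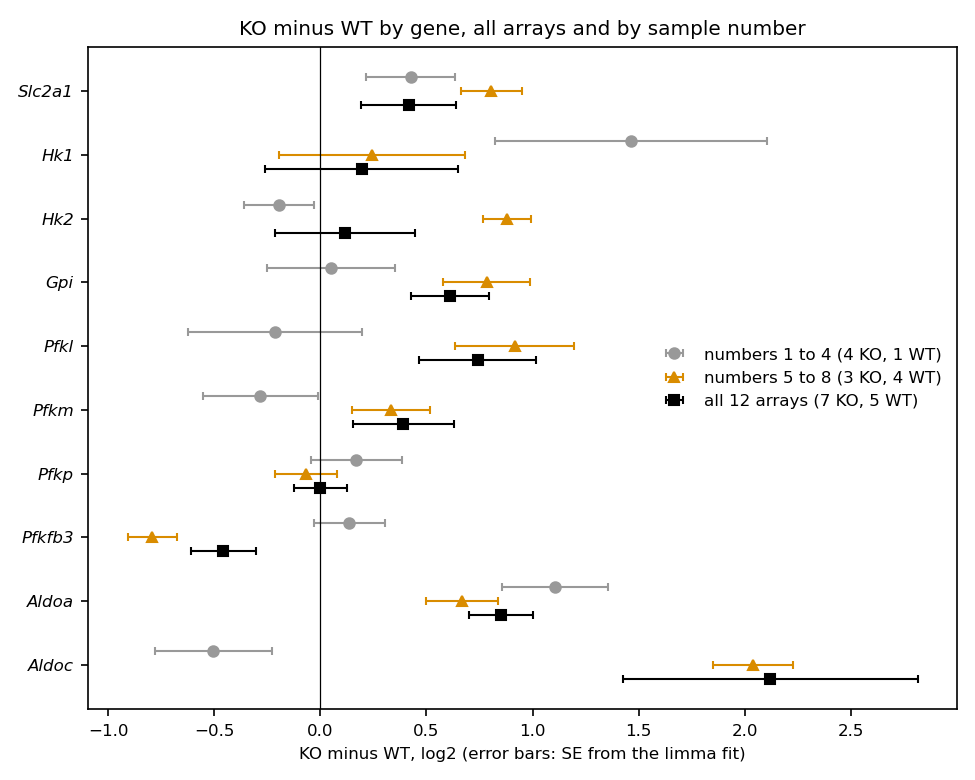
KO minus WT for each gene on the log2 scale, with the SE of the limma fit as error bars. Grey circles are sample numbers 1 to 4 (4 KO, 1 WT), orange triangles 5 to 8 (3 KO, 4 WT) and black squares all 12 arrays; Slc2a1, Hk1, Gpi and Aldoa lie above 0 in both sets, and Hk2, Pfkl, Pfkm, Pfkp, Pfkfb3 and Aldoc lie on opposite sides of 0.

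Isoforms were compared by the difference of their log2 signals within each array, which does not depend on the scaling of the array, over 5 pairs with Benjamini-Hochberg adjustment over the 5. No pair passed. Aldoc minus Aldoa averaged -4.70 ± 0.80 (SD, n = 7) in the KO and -5.97 ± 1.94 (SD, n = 5) in the WT, so that Aldoc differed by 1.27 more than Aldoa (exact two-sided permutation p = 0.152, adjusted p = 0.253). Without WT 3 this became 2.13 (exact permutation, adjusted p = 0.0152), since WT 3 at -2.52 was the highest of the 12 arrays. Pfkp minus Pfkl averaged 3.54 ± 0.44 (SD, n = 7) in the KO and 4.28 ± 0.83 (SD, n = 5) in the WT, a difference of -0.74 (exact permutation p = 0.0745, adjusted p = 0.253). Without WT 3 the Pfkp minus Pfkl difference was -1.03 (exact permutation, adjusted p = 0.0303). With WT 3 left out no WT array of numbers 1 to 4 remains, so both of these comparisons mix number set with genotype. Pfkl minus Pfkm averaged -0.36 ± 0.38 (SD, n = 7) in the KO and -0.71 ± 0.27 (SD, n = 5) in the WT, a difference of 0.35 (exact permutation p = 0.112, adjusted p = 0.253). It was 0.47 without KO 4 (exact permutation, adjusted p = 0.0325). With any array other than WT 3 or KO 4 left out, no pair passed, and the adjusted p of Pfkl minus Pfkm reached 0.485 (exact permutation). Pfkp minus Pfkm differed by -0.39 (exact permutation p = 0.221, adjusted p = 0.276) and Hk2 minus Hk1 by -0.079 (exact permutation p = 0.867). Within numbers 5 to 8, where 35 splits allow no p below 0.0286, Aldoc minus Aldoa differed by 1.37 (exact permutation p = 0.0286, adjusted p = 0.143) and Hk2 minus Hk1 by 0.64 (exact permutation p = 0.343).

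**Figure D4:**
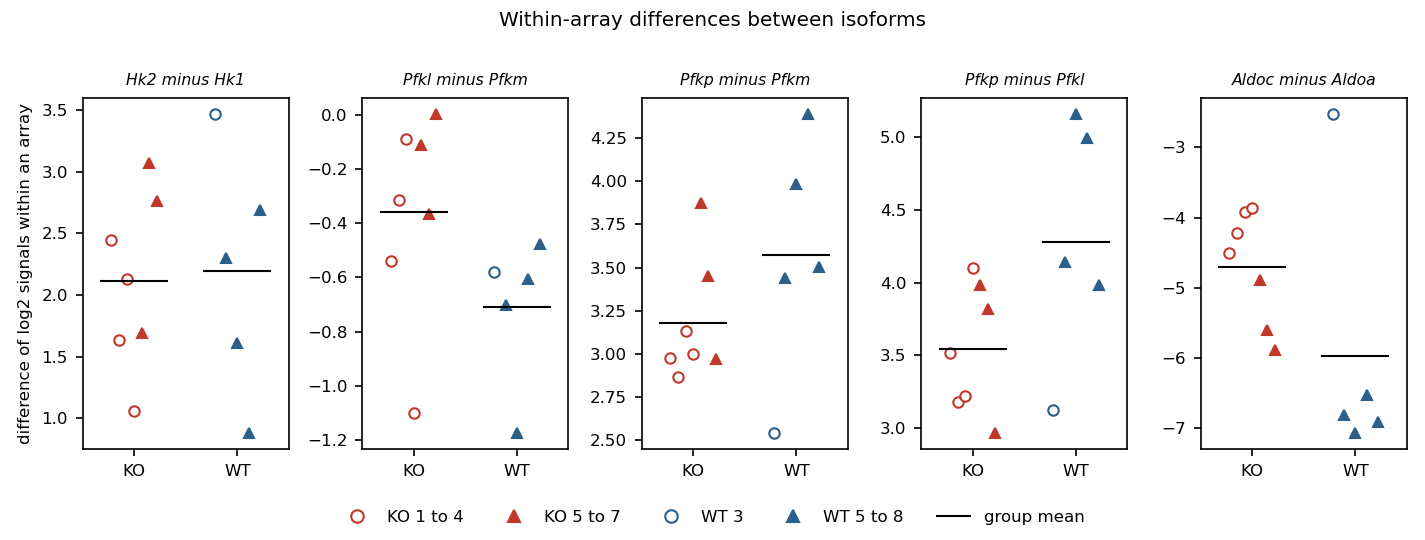
Difference between the log2 signals of 2 isoforms within each array, with KO left and WT right and a separate vertical axis for each pair. Circles are sample numbers 1 to 4, triangles 5 to 8 and bars group means; in Aldoc minus Aldoa WT 3 (-2.52) stands above every KO array and WT 5 to WT 8 below every KO array.

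The members did not vary as a single block across the 12 arrays. Slc2a1 and Hk2 had the highest Pearson correlation of the member pairs, 0.86, followed by Pfkm and Aldoc, 0.84, and Pfkl and Pfkm, 0.80. Gpi and Pfkfb3 had the lowest, -0.77. These 12 points share the sample-number split and array brightness, so the values are descriptions. By the same measure the named genes most like Slc2a1 over the 12 arrays were Nt5c3a (0.98), Hrct1 (0.95) and Ptp4a1 (0.95). Those most like Hk2 were Dock3 (0.98), Cav1 (0.97) and Wasl (0.96). Those most like Aldoa were Rnd1 (0.95), Capns1 (0.94) and Gng12 (0.92). Those most like Pfkfb3 were Slc25a24 (0.98), Loxl4 (0.96) and Egfr (0.95).

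The promoters of Slc2a1 and Hk2 are shown since both genes were high in KO 5 to KO 7. Each is the 250 bases before the gene's start in RefSeq, build GRCr8, 5′ to 3′ on the gene's strand, at chr5:138002272-138002521 (plus strand) for Slc2a1 and chr4:116841276-116841525 (minus strand) for Hk2. Capitals mark ACGTG or GCGTG on either strand, the core letters of the hypoxia response element, in which ACGTG also lies inside the E-box CACGTG.
Slc2a1: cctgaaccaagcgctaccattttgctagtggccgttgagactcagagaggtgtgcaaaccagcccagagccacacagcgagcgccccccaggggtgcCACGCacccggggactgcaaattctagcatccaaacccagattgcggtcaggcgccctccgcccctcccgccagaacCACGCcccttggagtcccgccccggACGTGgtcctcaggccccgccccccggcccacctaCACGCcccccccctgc
Hk2: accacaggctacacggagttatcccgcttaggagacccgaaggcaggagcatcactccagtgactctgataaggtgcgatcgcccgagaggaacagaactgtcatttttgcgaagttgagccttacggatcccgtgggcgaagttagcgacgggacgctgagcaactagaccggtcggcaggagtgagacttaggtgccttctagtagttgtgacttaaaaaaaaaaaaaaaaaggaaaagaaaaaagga
The Slc2a1 window held 4 matches and the Hk2 window 0. All 10 members were found in the RefSeq promoter table, and 6 of the 10 windows held a match, against 36.7% of all 33469 promoters of that length and 63.2% of those with over 60% G and C. The Aldoa window, of the member that rose over all arrays, held 0 matches, and that of Aldoc held 3. A match is a stretch of letters and not a shown binding site. Each window stands before a single RefSeq start, and which start these cells use was not tested.

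The rest of glucose metabolism was read from lists of other genes. Of 17 genes of lower glycolysis and lactate handling 13 were tested, with a median difference of 0.34. By limma, an unadjusted p under 0.05 gave 8 higher and 0 lower, beside 9.2% and 6.62% of all probes. After adjustment 1 was called higher and 0 lower, beside 0.704% and 0.442% of all probes. The 1 was Tpi1, the isomerase that follows aldolase, at 2.09 ± 0.20 (SD, n = 7) in the KO and 1.00 ± 0.094 (SD, n = 5) in the WT, a difference of 1.08 (SE 0.13, adjusted p = 0.00429). In numbers 5 to 8, where 4.99% of all probes were called higher, 4 of the 13 rose, Tpi1 (1.26), the triose dehydrogenase gene Gapdh (1.19), the lactate exporter gene Slc16a3 (1.06) and the mutase gene Pgam1 (0.58). In numbers 1 to 4, with WT 3 as the lone wild-type array, Tpi1 differed by 0.90, Gapdh by 0.11, Slc16a3 by -0.017 and Pgam1 by 0.12. Of 28 further genes of glucose transport and upper glycolysis 14 were tested, with a median of 0.041. Limma called 0, beside 0.704% higher and 0.442% lower of all probes. An unadjusted p under 0.05 gave 1 higher and 2 lower, beside 9.2% and 6.62% of all probes. The transporter genes Slc2a2, Slc2a3, Slc2a4 and Slc2a5 and the hexokinase gene Hk3 were well above background on 0 arrays. Txnip, an arrestin that restrains glucose uptake, differed by -1.18 (SE 0.36, adjusted p = 0.122), and Pfkfb1, the liver relative of Pfkfb3, by 0.42 (adjusted p = 0.181). With the sets of numbers as a block 1 of the 14, Pfkfb1, rose (limma adjusted p = 0.0242) and 1, Txnip, fell (adjusted p = 0.0263), beside 2.95% and 2.15% of all probes. In numbers 5 to 8 Pfkfb1 (0.56, limma adjusted p = 0.0340) and the transporter gene Slc2a12 (0.57, adjusted p = 0.0348) rose, beside 4.99% of all probes. In numbers 1 to 4 Pfkfb1 differed by 0.50 and Slc2a12 by -0.89, and over all 12 arrays Slc2a12 differed by -0.20.

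Of 16 genes of the glycogen, pentose phosphate and hexosamine branches 14 were tested. Limma called 0, beside 0.704% higher and 0.442% lower of all probes. An unadjusted p under 0.05 gave 3 higher and 0 lower, beside 9.2% and 6.62% of all probes. The median of the 14 was 0.16. The smallest p values were those of Pgd, of the pentose phosphate pathway (0.76, adjusted p = 0.173), and Gys1, glycogen synthase (0.48, adjusted p = 0.172). In numbers 5 to 8, where 4.99% of all probes were called higher, 3 of the 14 rose. They were Pygl, the liver glycogen phosphorylase (2.93, limma adjusted p = 8.86e-05, well above background on 6 of 12 arrays), Gys1 (0.69, adjusted p = 0.0117) and Rpe, a pentose phosphate epimerase (0.47, adjusted p = 0.0418). In numbers 1 to 4, with WT 3 as the lone wild-type array, Pygl differed by -1.01, Gys1 by -0.19 and Rpe by 0.33. With the sets of numbers as a block Rpe rose (0.43, limma adjusted p = 0.0451), where 2.95% of all probes were called higher. Of 15 regulators of glycolytic genes 12 were tested, with a median of 0.059. Limma called 0, beside 0.704% higher and 0.442% lower of all probes. An unadjusted p under 0.05 gave 0 higher and 1 lower, beside 9.2% and 6.62% of all probes. Hif1a, the hypoxia-inducible factor subunit, differed by 0.30 (adjusted p = 0.433), and Myc, a transcription factor that drives growth, by -0.63 (adjusted p = 0.236).

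**Figure D5:**
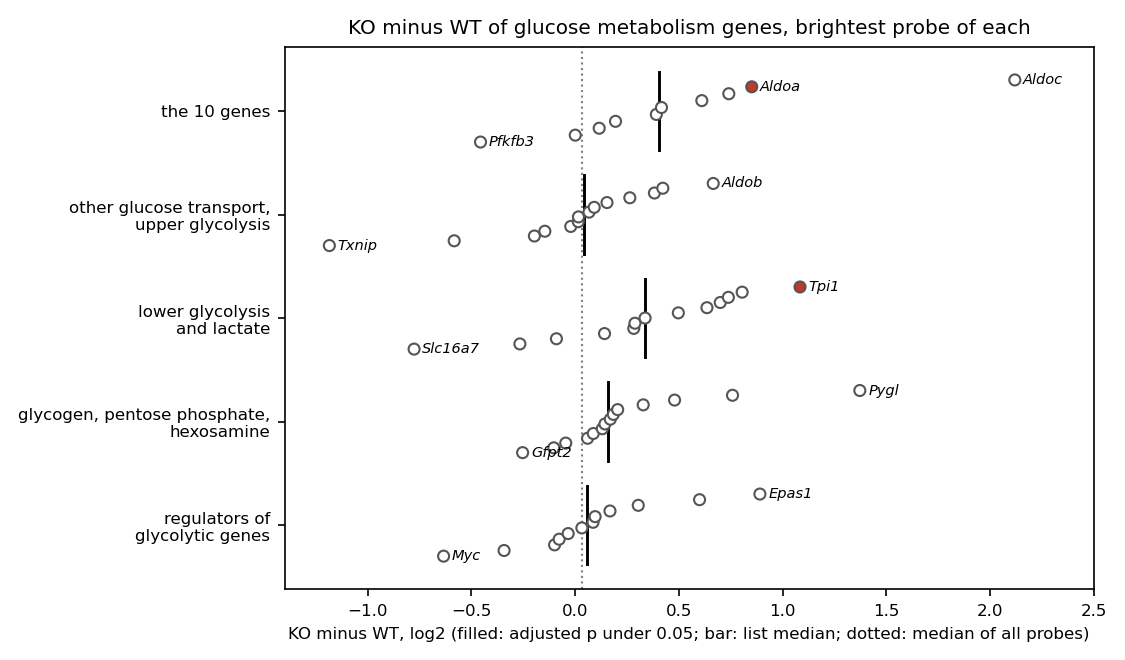
KO minus WT on the log2 scale for the brightest probe of each tested gene, by list, over all 12 arrays. Filled points passed at an adjusted p under 0.05 (Aldoa and Tpi1), bars are list medians (0.40 for the 10 genes) and the dotted line is the median of all probes, 0.035.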

How the data were processed

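RNA of 12 N27 cultures was measured on 1-colour Agilent arrays. Trizol was used for the RNA and Cy3 as the dye, per the labels' protocols. The submitters' processing notes name Agilent Feature Extraction 10.7, and the file headers version 10.1.1.1. The deposited scanner files give linear intensity per spot and, among other columns, yes-or-no flags, per the file headers. The deposited value table holds log2 values whose sorted columns are alike, as quantile normalization leaves them, with a Spearman correlation of 0.999 with the scanner signal, and served as an alternative. The 12 arrays lay on 3 slides scanned on 2 days, and each slide held both genotypes.

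Of 58717 spots that are not controls, spots with a flag for uneven signal or for being a population outlier were dropped (0.613% to 1.10% per array), spots of 1 probe were averaged as log2 processed signal, and the array's 75th percentile was subtracted. Every probe well above background on at least 5 of 12 arrays was tested, 17890 in all, with limma 3.58.1 in R 4.3.3 (two-sided, no covariate, Benjamini-Hochberg adjusted p under 0.05). A gene is represented by its probe with the highest mean. No member had a missing value. Contrasts within slides or sets of numbers came from fits with a mean for each set and genotype, in which WT 3, or WT 5 on slide 2, as the lone wild-type array is assumed to vary like the others. The procedure was tested on simulated data, where it called 9% of changes of 0.5 log2 units, 68.7% of those of 1 and 89.4% of those of 2. Changes of 0.5 would thus mostly be missed, so a member not called is not shown to be unchanged. The number of arrays limits the precision.

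The members, the lists, the pairs, the split by sample number and the alternatives were chosen with earlier results of these data known. Named genes are the members, Vdac1, the called genes of each list or the 2 with the smallest p, the 3 most correlated genes for Slc2a1, Hk2, Aldoa and Pfkfb3, and cell type markers. Slc2a2 to Slc2a5, Hk3, the genes of the lists called in numbers 5 to 8 alone, Vim, Col1a1 and Thy1 were named after their values were seen. The numbers 3, 5, 6 and 7 occur in both genotypes. The deviations of same-numbered cultures from their group means correlated at 0.45, -0.11, 0.067 and 0.050 across probes, which is above 0.1 for 1 of the 4. Those group means mix both sets of numbers, so this check cannot tell pairing from number set. The numbers were not taken to pair the cultures.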

Additional observations from a re-analysis of the deposited data

Results flagged for a closer look

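WT 3 stood far from the other 4 WT arrays in Aldoc, at -0.094 against -3.84 for the nearest, a gap of 0.829 of the group's range, and in Vdac1, at 3.61 against 3.16 for the nearest, a gap of 0.821. Over the 22 groups examined these were the 2 found, and chance alone gives about 1 in 20. Both are the same array, which also lay with numbers 1 to 4 on the first principal component, and in Aldoc WT 6 and WT 7 were not well above background. The Vdac1 gap is that of the probe at base 1724 alone. At base 880 WT 3 gave -1.28, inside the WT range of -1.51 to -0.53. At base 630 WT 3 gave -1.81, inside the WT range of -1.89 to -1.29.

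For 3 members the KO minus WT difference of numbers 5 to 8 minus that of numbers 1 to 4 passed in the fit over all probes. It was 1.07 for Hk2 (SE 0.20, limma adjusted p = 0.0259), -0.93 for Pfkfb3 (SE 0.20, limma adjusted p = 0.0485) and 2.54 for Aldoc (SE 0.34, limma adjusted p = 0.00484). This test was added after the arrays were seen to separate by number, and each value rests on WT 3 as the lone wild-type array of its set, which is assumed to vary like the others. At the second Hk2 probe it was 0.73 and did not pass (limma adjusted p = 0.478).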

How the results depend on the processing

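The higher call of Aldoa was lost under 5 other ways of handling the values: quantile normalization (0.73, limma adjusted p = 0.0591), subtraction of each array's median (0.80, adjusted p = 0.0660), the deposited value table (0.73, adjusted p = 0.0579), no filter on dim probes (0.85, adjusted p = 0.321) and the sample number as a replicate block (0.78, adjusted p = 0.302). It was also lost within slides 1, 2 and 3 (0.86, 1.05 and 0.52), where fewer arrays enter, and within numbers 1 to 4 (1.11). It kept its call with normexp background correction (0.90, adjusted p = 0.0465). The number of members called higher was 0 under quantile normalization, median subtraction, the value table, no filter and the replicate block, 2 with the sets of numbers as a block and 5 within numbers 5 to 8, where 1 was lower. The Vdac1 difference passed under quantile normalization (-1.35), the value table (-1.35), the filter on all 12 arrays (-1.23), the mean of a gene's probes (-1.20), slide (-1.38), scan day (-1.26) or number set (-1.58) as a block, and within numbers 5 to 8 (-1.80). Within numbers 1 to 4, with WT 3 alone, it was -1.12. It did not pass with normexp (limma adjusted p = 0.102), median subtraction (0.0925), no filter (0.383), the replicate block (0.247) or 1 probe per gene name (0.0560). Nor did it pass within any slide or with any single array left out (limma adjusted p from 0.0566 to 0.137).

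Over all probes, 126 higher and 79 lower became 21 and 10 with normexp, 65 higher with quantile normalization, 26 and 35 with median subtraction, 64 higher with the value table, 211 and 132 with the filter on all 12 arrays, 284 and 188 with slide as a block, 228 and 155 with scan day, 528 and 385 with number set, and 893 and 802 within numbers 5 to 8. With no filter they became 0 and 0 (limma, 2434 at unadjusted p under 0.05) and with the replicate block 0 and 0 (limma, 1849 at unadjusted p under 0.05). The share of calls that were higher was 61.5%, and 67.7% with normexp, 42.6% with median subtraction, 49.6% with the value table and 50% with quantile normalization. The cause of these shifts was not tested.

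Several members and pairs changed sign, and not only those with small differences. Pfkp became -0.10 under quantile normalization, -0.11 with the value table, -0.054 with median subtraction, -0.052 with the replicate block, -0.092 within slide 3 and -0.067 within numbers 5 to 8, and Hk1 became -0.018 with normexp. Within slide 1 Pfkm was -0.12, Aldoc -0.17, Pfkp minus Pfkm 0.19 and Aldoc minus Aldoa -1.03. Within slide 2 Slc2a1 was -0.034, Hk1 -0.40 and Hk2 -0.64. Within numbers 1 to 4 Hk2 was -0.19, Pfkl -0.21, Pfkm -0.28, Pfkfb3 0.14, Aldoc -0.50, Pfkp minus Pfkm 0.45, Pfkp minus Pfkl 0.38 and Aldoc minus Aldoa -1.61. Hk2 minus Hk1 was 0.12 with normexp, 0.13 within slide 3, 0.64 within numbers 5 to 8 and 0.062 with the other Hk2 probe, and Aldoc minus Aldoa was -0.12 with normexp. The filter on all 12 arrays gives no value for Aldoc.

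Leaving out 1 array at a time gave 0 to 4 members higher and 0 to 1 lower, and 13 to 442 probes higher and 4 to 333 lower over all probes. The 4 and 1, and the 442 and 333, came without WT 3, when Gpi, Pfkl, Aldoa and Aldoc were higher and Pfkfb3 lower. No WT array of numbers 1 to 4 remained in that fit, so it mixes number set with genotype. Aldoa ranged from 0.80 to 0.92, Hk1 from -0.21 to 0.52, Hk2 from -0.030 to 0.23 and Pfkp from -0.037 to 0.086. The pairs ranged from -0.41 to 0.24 for Hk2 minus Hk1, 0.23 to 0.47 for Pfkl minus Pfkm, -1.03 to -0.52 for Pfkp minus Pfkl and 0.99 to 2.13 for Aldoc minus Aldoa. Signals near background limit Aldoc in WT 6 and WT 7 and the second Hk2 probe.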
